A study of Drosophila melanogaster with 19 samples.

Results

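Unannotated intergenic transcripts are RNAs that the study's own transcript assembly placed between annotated genes of Drosophila melanogaster. All rows of the deposited expression table with class code u were taken, the code by which the Cufflinks programs mark an assembled transcript that overlaps no annotated gene. There were 604 of them among 37161 transcripts, each with a chromosome, a strand, a start and a level in 9 RNA libraries, and no measured value was used to choose them.

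RNA was measured in S2R+ cells, an embryo-derived line with features of blood cells, 4 days after double-stranded RNA (dsRNA) was added to the medium at 25 °C. The dsRNA was given at 30 µg/ml and diluted to 10 µg/ml. The GFP control, mip40 RNAi, mip120 RNAi and mip130 RNAi groups had 2 libraries each, and E2F2 RNAi had 1 library. GFP dsRNA targets a jellyfish reporter gene that flies do not carry, so all groups share exposure to dsRNA. Polyadenylated RNA was captured with oligo-dT and read in pairs of 100 bp, and levels are in FPKM, fragments scaled to transcript length and library total. The labels do not state whether the 2 libraries of a group came from separate cultures, and the p-values below reflect no more than the scatter among these libraries. Fewer cells with an RNA and less RNA per cell cannot be told apart in such bulk samples.

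The mip genes encode subunits of dREAM, a complex of retinoblastoma-family proteins, E2F2 and Myb-associated proteins that sits near many promoters and represses genes of development and of the cell cycle. E2F2 is its repressive E2F factor. RNA polymerase II also starts outside annotated genes, at enhancers, at repeats and in the reverse direction from gene promoters, and such RNAs are often unstable and low. A transcript on the opposite strand that starts just upstream of a gene's own start is called here head to head with that gene.

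Each dsRNA lowered its own target, although by unequal amounts. The target's summed level was 3.96% of the control mean in mip40 RNAi, 59.6% in mip120 RNAi, 16.4% in mip130 RNAi and 9.45% in E2F2 RNAi. Of 12 blood cell markers 11 were listed and 9 had a mean of at least 1 FPKM, with the scavenger receptor crq at 159 FPKM and the GATA factor srp at 98.9 FPKM, while Hml was at 0.321 FPKM and He at 0.961 FPKM. Their sum was lowest in mip120 RNAi, at 424 to 428 FPKM against 514 and 535 FPKM in the controls, and its part in the results below was not tested. Of the markers of other cell types, Syt1, brp, Mhc, Act88F and the 4 fat body genes had means under 1 FPKM, while elav was at 30.9 and Tm1 at 370 FPKM. The 5 germline markers summed to 43.1 and 48.7 FPKM in the controls and to 85.8 and 93.6 FPKM in mip130 RNAi, which was not tested here against the members' values either.

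Most of the intergenic transcripts were low but measurable. Their median mean level over the 9 libraries was 1.24 FPKM, against 0.182 FPKM for the 30453 known transcripts, many of which are silent in this line. In all, 233 members (38.6%) lay between 0.1 and 1 FPKM, 294 (48.7%) between 1 and 10, 58 (9.6%) between 10 and 100 and 11 (1.82%) at 100 or more, while 8 (1.32%) lay under 0.1 FPKM and 4 were listed at 0 in every library. A member enters the table only if the assembly found it, whereas a known transcript is listed whether or not it is expressed, so the medians compare unlike lists. The first exons had a median length of 755.5 bp, against 246 bp in known transcripts, and ran from 9 to 14754 bp, with 35 under 100 bp. FPKM divides by length, so values of such short transcripts rest on few positions.

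The plus and minus strands held 302 members each. The members belonged to 537 assembly loci, and 46 of them shared 22 starts with another member, so they are not 604 independent units. Between 329 and 362 members reached 1 FPKM in a library. Between the 2 libraries of a group, the 467 members that entered the test differed somewhat more in the median than known transcripts did. The median absolute difference on the log2(FPKM + 1) scale was 0.21 to 0.28 against 0.16 to 0.20. This scale narrows differences at low levels.

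A single member dominated the summed signal. It starts at XHet:189620 on the plus strand, in heterochromatin of the X chromosome, has a first exon of 57 bp (XHet:189620-189676) and lies 390 bp upstream of CR41602 on the same strand. It was listed at 90734 and 23481 FPKM in the controls, 30453 and 33956 in mip40 RNAi, 23390 and 15728 in mip120 RNAi, 50952 and 123987 in mip130 RNAi and 71193 in E2F2 RNAi. The 2 controls alone spanned most of the groups' range, and no comparison with GFP called this member. CR41602 itself was listed at 0 in 8 libraries and at 6010 FPKM in E2F2 RNAi. An exact 0 can be a failed estimate and E2F2 RNAi had 1 library, so no fold is given.

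With the XHet transcript included, the members took 14.4% and 4.89% of all FPKM in the controls and 16.8% in the second mip130 library. Without it they took between 0.658% and 1.88% of the remaining sum. The next member by level, on the minus strand at 3RHet:121881 with a first exon of 53 bp, was at 7880 and 4143 FPKM in the controls, 894 and 3157 in mip40 RNAi, 2076 and 684 in mip120 RNAi, 1190 and 1474 in mip130 RNAi and 3858 in E2F2 RNAi. Both its mip120 and both its mip130 libraries lay below both controls, but the changes of -2.26 (SE 0.76) and -2.11 (SE 0.76) on the log2(FPKM + 1) scale did not pass limma's test (adjusted p = 0.121 and 0.134).

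**Figure D1:**
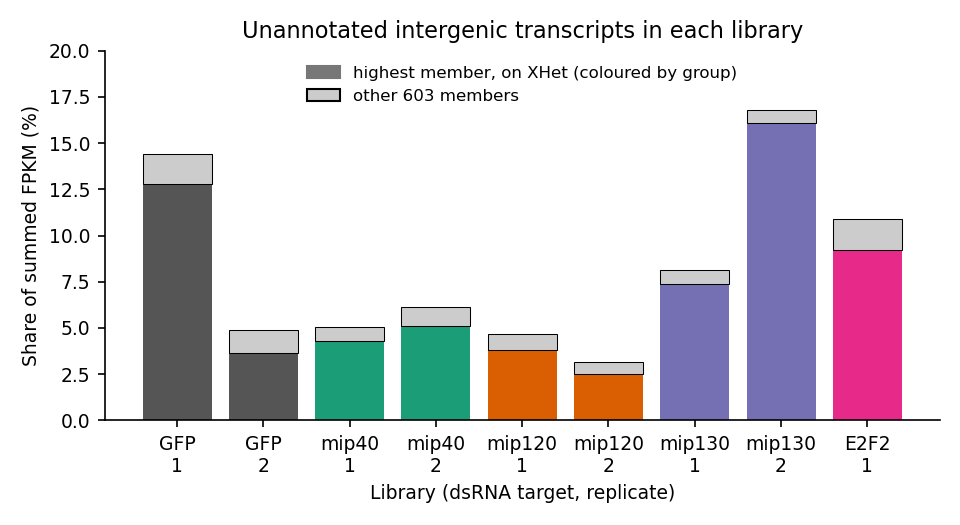
Share of each library's summed FPKM taken by the 604 unannotated intergenic transcripts, in percent, with the XHet member coloured by group and the other members in grey. The XHet member runs from 2.52% to 16.1% and differs as much between the 2 control libraries as between groups.

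Below these, the highest members were at 3LHet:375744 (180 to 1460 FPKM), 3R:24846771 (109 to 449 FPKM) and 3L:50223 (144 to 287 FPKM). All 3 had their highest value in the E2F2 library, although the last was at 285 FPKM in the second mip130 library too, and none of their mip120 or mip130 changes passed the test. Members at 2RHet:339031 (144 to 267 FPKM), 2L:22267891 (80.2 to 198 FPKM) and 3LHet:2394505 (80.2 to 228 FPKM) completed the well expressed ones that no comparison with GFP called. The 3LHet member lies 3286 bp upstream of RpL15, a ribosomal protein gene in heterochromatin, and has a first exon of 23 bp.

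The mitochondrial genome held 3 members and no known transcript of the table. They started at M:201, M:13 and M:14905, and all 3 were listed at exactly 0 in the 8 GFP, mip40, mip120 and mip130 libraries. In the E2F2 library they stood at 827, 478 and 2384 FPKM. An exact 0 in all other libraries can be a failed estimate, so no fold is given, and with 1 library they did not enter the test.

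The members were spread unevenly over the chromosomes. The heterochromatic sequences of the assembly (2LHet, 2RHet, 3LHet, 3RHet, XHet and YHet) held 75 members, which is 12.4% of them, against 0.621% of the known transcripts. Chromosome arm 3L held 152 (25.2%, against 19.7% of the known transcripts) and 3R only 72 (11.9%, against 23.7%). Arms 2L, 2R and X held 98, 110 and 83, and chromosome 4 held 11. The intergenic length of each chromosome was not measured.

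Distances were measured to the starts of known transcripts, not to gene bodies or ends. The median distance from a member's start to the nearest start of a known transcript, on either strand, was 4215 bp over the 601 members whose sequence carries one. It was 6776.5 bp to the nearest known start with a mean of at least 1 FPKM and 10113 bp to the nearest start on the same strand. By the first of these measures 181 members (30.0%) lay over 10000 bp away. Another 94 (15.6%) lay within 500 bp, 44 between 500 and 1000 bp, 70 between 1000 and 2000 bp, 124 between 2000 and 5000 bp and 88 between 5000 and 10000 bp. Of the 94 closest, 90 were head to head with their gene, 3 lay upstream on the same strand, 1 lay downstream on the opposite strand and none lay downstream on the same strand. A transcript within a gene would carry another class code, which leaves mainly the upstream side for starts this close. Over all distances, 280 members were upstream on the opposite strand, 158 upstream on the same strand, 88 downstream on the same strand and 75 downstream on the opposite strand. The strand is the one listed in the table, and how the libraries kept strand is not stated in the labels.

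**Figure D2:**
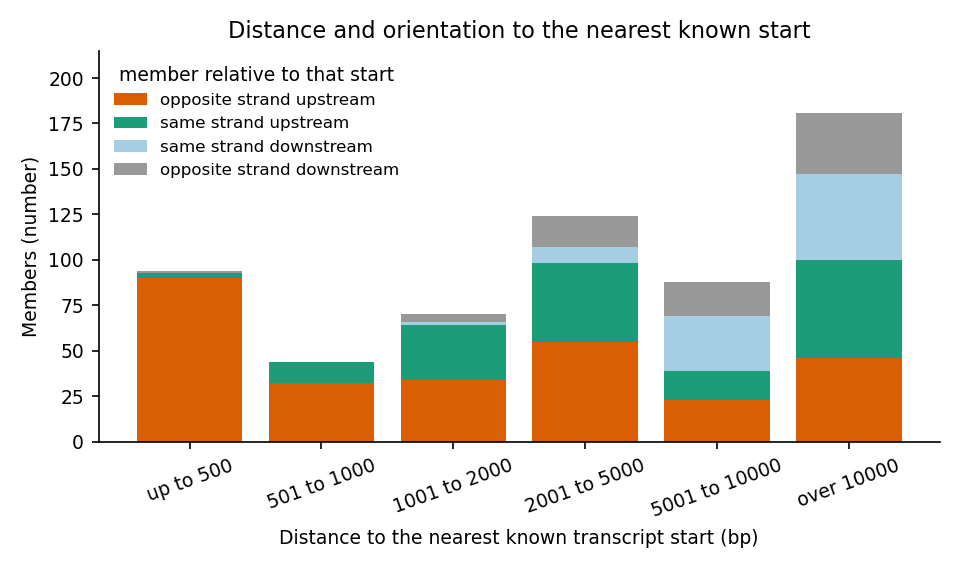
Number of unannotated intergenic transcripts by distance in bp to the nearest known transcript start, stacked by their orientation to that start. Of the 94 within 500 bp, 90 lie upstream on the opposite strand, and the 181 beyond 10000 bp spread over all orientations.

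Members also lay close to each other. Joining starts within 5000 bp gave 364 clusters, of which 115 held at least 2 and together 355 members. The largest ran from 2L:22265390 to 2L:22280611, with 11 of its 12 members on the minus strand, 15512 to 28968 bp from the nearest known start of CG17018 or of Tif-IA, the RNA polymerase I initiation factor. Its summed level was 355 and 387 FPKM in the controls, 499 and 478 in mip40 RNAi, 311 and 289 in mip120 RNAi, 318 and 379 in mip130 RNAi and 474 in E2F2 RNAi. None of the 12 was called against GFP, although members of the cluster differed between mip120 and mip40 RNAi as given later.

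Which of these transcripts changed when a dREAM subunit was depleted was asked with limma on log2(FPKM + 1), fitted over all transcripts with at least 1 FPKM in at least 2 libraries, 16806 in all. The test took in 467 members (77.3%) and left out 137. A member that reached 1 FPKM only in RNAi libraries had to be higher there, so a count of risen members is in part set by this filter. A call is an adjusted p under 0.05 over all 16806, and every comparison with GFP shares the same 2 control libraries.

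In mip120 RNAi, 36 of the 467 members rose (7.71%) and 12 fell (2.57%). Over all transcripts tested, 6.13% rose and 4.93% fell, so the share that rose was near the background and the share that fell was lower. In mip130 RNAi, 32 members rose (6.85%) and 15 fell (3.21%), against 6.51% and 4.91% over all transcripts. In mip40 RNAi 4 members rose and none fell, against 0.922% and 0.292% of all transcripts, with 65 members at an unadjusted p under 0.05. In E2F2 RNAi 4 members rose and 2 fell, against 1.05% and 0.875%.

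The mip120 and mip130 calls rested on every library of the compared groups. Without the first or the second GFP library, the mip120 total of 48 dropped to 13 and 10, and without the first or the second mip120 library to 12 and 7. The mip130 total of 47 dropped to 20 and 10 without a GFP library, to 12 and 7 without a mip130 library, and to 27 and 28 without a mip120 library. The mip40 total dropped to 2 without the first GFP, the second mip120 or either mip130 library. Where a group keeps 1 library, that library is assumed to vary like the others. Summed by assembly locus, 60 of 425 loci of members rose (14.1%) and 51 fell (12%) in mip120 RNAi, where 17.3% and 18.4% of the 7835 annotated genes summed in the same fit rose and fell. In mip130 RNAi 67 loci rose (15.8%) and 45 fell (10.6%), against 19.1% and 16.6% of the genes. Both directions thus lay below the share of the genes once levels were summed. Tested members were lower than all tested transcripts, at a median control level of 1.8 against 7.01 FPKM. None of these shares was matched for level.

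The risen members started closer to known starts than the tested members as a whole. In mip120 RNAi the 36 had a median distance of 300 bp to a known start and 21 of them were head to head, while the 12 that fell had a median of 4972.5 bp and none was head to head. In mip130 RNAi the 32 had a median of 367.5 bp and 17 were head to head, while the 15 that fell had a median of 5407 bp and 2 were head to head. Of the risen members, 20 in mip120 RNAi and 15 in mip130 RNAi had both controls under 1 FPKM. These entered the test through RNAi libraries, where they had to be higher. Among all 467 tested members the median was 3937 bp, 77 were head to head and 85 had both controls under 1 FPKM.

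Read the other way, 21 of the 77 tested head-to-head members rose in mip120 RNAi (27.3%) and none fell, with a median change of 0.48 on the log2(FPKM + 1) scale. Of the other 390, 15 rose (3.85%) and 12 fell, with a median of -0.10. Among the 136 members over 10000 bp from a known start 1 member rose and 3 fell in mip120 RNAi, while mip130 RNAi had 4 risen and 5 fallen there. The median over all 16806 transcripts was -0.02. In mip130 RNAi 17 of the 77 rose (22.1%) and 2 fell, with a median of 0.42, against 15 risen and 13 fallen of the other 390 and a median of -0.04. In mip40 RNAi 2 of the 77 rose with a median of 0.14, and in E2F2 RNAi 2 rose and 1 fell with a median of 0.00. The window of 500 bp was taken up for this count after values had been seen, and windows of 250 and 1000 bp gave 17 of 56 and 23 of 103 risen in mip120 RNAi and 12 of 56 and 18 of 103 in mip130 RNAi.

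This contrast depended on members that were nearly silent in the controls. Of the 36 risen in mip120 RNAi, 20 had both controls under 1 FPKM and 5 had both listed at 0, and in mip130 RNAi these numbers were 15 and 4. Among members with both controls at 1 FPKM or more, 4 of 41 head-to-head members (9.76%) and 9 of 257 others (3.5%) rose in mip120 RNAi, and 3 of 41 (7.32%) and 11 of 257 (4.28%) in mip130 RNAi. When 1 GFP or 1 mip120 library was left out, 4 to 6 head-to-head members rose in mip120 RNAi out of 73 to 75, against 2 to 4 of 378 to 385 others. In mip130 RNAi 3 to 8 of 73 to 75 rose without 1 GFP or mip130 library, against 2 to 6 of 378 to 382 others, and 9 or 10 of 73 rose without 1 mip120 library. Fitted on the 2 compared groups alone, 11 of 65 rose in mip120 RNAi and 10 of 64 in mip130 RNAi. For comparison, 352 of 4583 tested known transcripts that start head to head with another known gene within 500 bp rose in mip120 RNAi (7.68%), against 5.94% of other known transcripts. In mip130 RNAi these shares were 8.6% and 6.33%. The difference between the kinds of transcript was not tested.

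**Figure D3:**
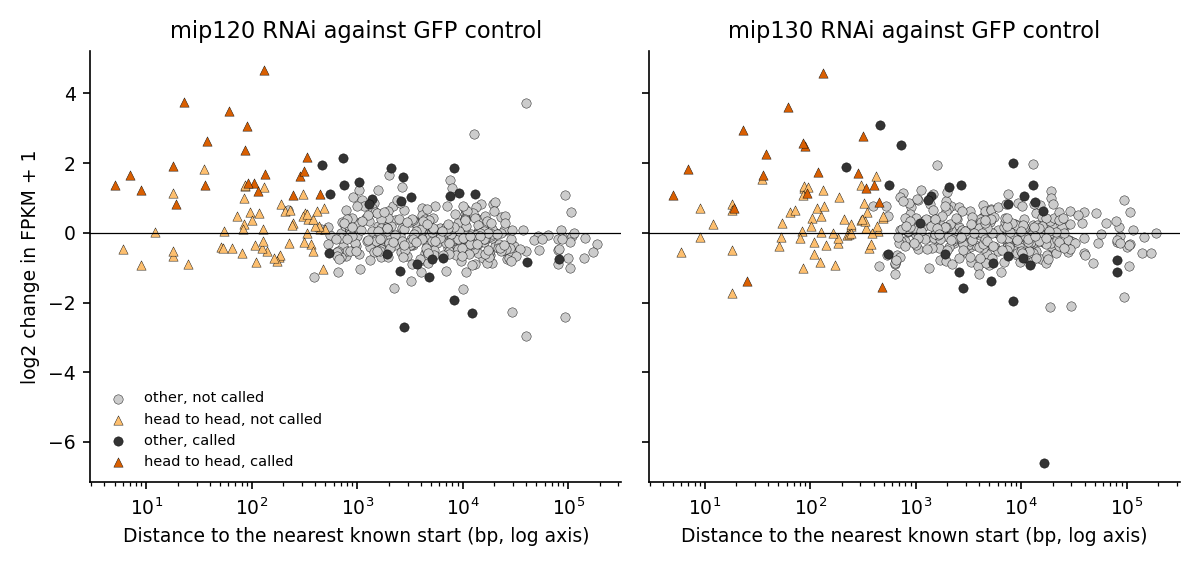
Change of each tested member against GFP on the log2(FPKM + 1) scale, by its distance to the nearest known start in bp on a log axis, in mip120 and mip130 RNAi. Triangles mark head-to-head members, of which 21 of 77 and 17 of 77 rose, and the lowest mip130 point is a member listed at 0 in both mip130 libraries.

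Together 23 head-to-head members rose in mip120 or mip130 RNAi, each beside a different gene. They started 5 to 446 bp from that gene's start, 17 of them within 150 bp, and 16 had both controls under 1 FPKM. Those 16 entered the test through RNAi libraries alone, where they had to be higher. The genes included flw, a protein phosphatase 1 catalytic subunit, HIP, a cofactor of the chaperone Hsc70, Gmap, a Golgi matrix protein, PTP-ER, a tyrosine phosphatase of ERK signalling, Cyp1, a cyclophilin, BoYb, a Tudor protein of the piRNA pathway, and upd3, a ligand of the JAK/STAT pathway.

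The member on the minus strand at X:10279861, with a first exon of 389 bp (X:10279473-10279861), starts 132 bp from flw. It was listed at 0 in both controls and in E2F2 RNAi, at 1.06 and 6.35 FPKM in mip40 RNAi, at 27.3 and 21.6 in mip120 RNAi and at 19.5 and 26.9 in mip130 RNAi. All mip120 and mip130 libraries stood clear of the controls, and both changes passed limma's test (adjusted p = 0.0089 and 0.0109). The member reached 1 FPKM in mip libraries alone and so entered the test through them, where it had to be higher. An exact 0 can be a failed estimate, so no fold is given against controls listed at 0. The mip120 call was lost without any single GFP or mip120 library, with an adjusted p of up to 0.0597, and the mip130 call without the second GFP or either mip130 library, with up to 0.0755. The gene flw itself did not follow, at 207 and 209 FPKM in the controls, 193 and 181 in mip120 RNAi and 183 and 184 in mip130 RNAi (adjusted p = 0.0852 and 0.058 for the summed gene).

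The member on the plus strand at 3L:17905755 has a first exon of 2078 bp (3L:17905755-17907832) and starts 90 bp from CG5290. It was at 0.652 and 0.512 FPKM in the controls and 1.05 and 0.53 in mip40 RNAi. It was at 12 and 12.7 FPKM in mip120 RNAi, 7.64 and 8.22 in mip130 RNAi and 5.45 in E2F2 RNAi. The mip40 libraries overlapped the controls and all others stood clear of them. The member reached 1 FPKM in RNAi libraries alone and so entered the test through them, where it had to be higher. The changes were 3.08 (SE 0.20, adjusted p = 0.00147, limma) in mip120 RNAi and 2.50 (SE 0.20, adjusted p = 0.00289) in mip130 RNAi, both kept whichever library was left out. The change of 2.03 in E2F2 RNAi (adjusted p = 0.0234) was lost without either GFP, mip120 or mip130 library, with up to 0.0951. The member was also higher in mip120 than in mip40 RNAi by 2.91 (adjusted p = 0.00435) and in mip130 than in mip40 RNAi by 2.34 (adjusted p = 0.0107), calls lost without the second mip120 library (0.0539) and the second mip130 library (0.0855). CG5290 stood at 27.5 and 22.8 FPKM in the controls, 26.7 and 26.1 in mip120 RNAi and 31.2 and 33.8 in mip130 RNAi, where its summed level rose by 0.36 (adjusted p = 0.0264).

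Next to HIP, 86 bp from its start, the minus-strand member at X:3693095 (first exon X:3691429-3693095) was at 0 and 0.146 FPKM in the controls and 0.0665 in E2F2 RNAi. It was at 2.11 and 2.27 FPKM in mip40 RNAi, 4.37 and 4.70 in mip120 RNAi and 5.75 and 4.99 in mip130 RNAi. All 6 mip libraries lay above the controls, by 1.57, 2.37 and 2.57 (SE 0.21, adjusted p = 0.0275, 0.0027 and 0.00244, limma). The member reached 1 FPKM in the mip libraries alone and so entered the test through them, where it had to be higher. The mip120 and mip130 calls were kept in every leave-out, while the mip40 call was lost without any GFP, mip40, mip120 or mip130 library (up to 0.133). HIP did not pass the test in any of the mip groups.

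The member 38 bp from Zpr1, a zinc finger protein gene, starts on the plus strand at X:9056161 and has a first exon of 90 bp. It was at 3.20 and 3.74 FPKM in the controls, 27.1 and 15.3 in mip40 RNAi, 26.1 and 27.2 in mip120 RNAi, 17.6 and 23.9 in mip130 RNAi and 21.4 in E2F2 RNAi. Every RNAi library exceeded both controls, and all 4 changes passed limma's test, at 2.26 (adjusted p = 0.0276), 2.63 (0.0055), 2.27 (0.0103) and 2.33 (0.0358). The mip120 call was kept in every leave-out. The mip130 call was lost without the second GFP or second mip130 library (up to 0.0694), the mip40 call without either GFP, mip120 or mip130 library or the first mip40 library (up to 0.154), and the E2F2 call without either GFP, mip120 or mip130 library (up to 0.121). Zpr1 itself was at 15.2 and 12.6 FPKM in the controls and between 15.8 and 17.9 in the other libraries.

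**Figure D4:**
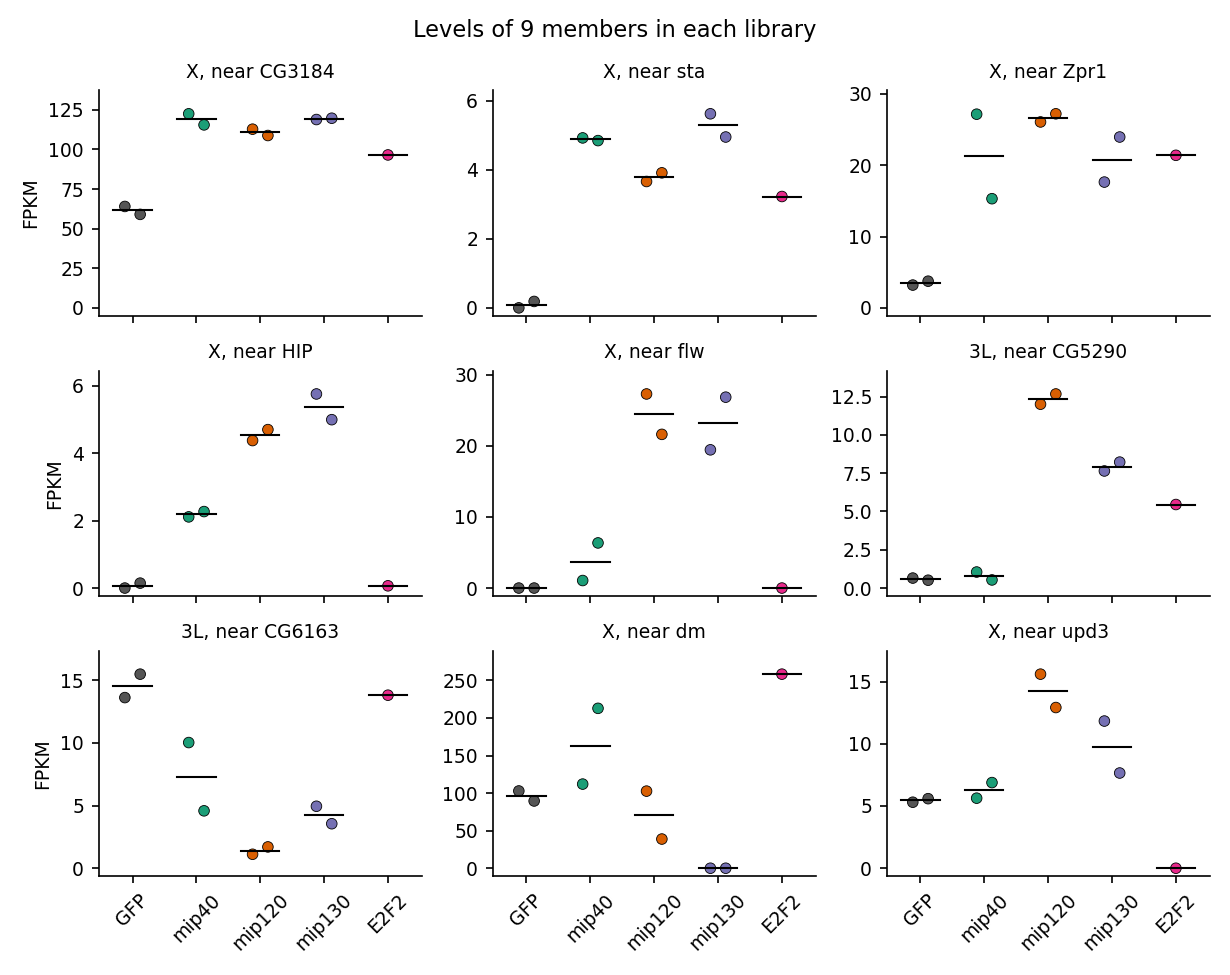
Levels in FPKM of 9 members in each library, by dsRNA target, with a point per library and a line at the group mean; each panel has its own axis, which includes 0, and names the chromosome and the nearest known gene. The members near CG3184, sta and Zpr1 are higher in every RNAi library than in both controls, and the member near dm is listed at 0 in both mip130 libraries.

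Other head-to-head members rose with less certainty. The member 61 bp from Gmap (X:15380894, minus strand) was at 4.39 and 0 FPKM in the controls, 15.6 and 7.66 in mip40 RNAi, 23.2 and 27.1 in mip120 RNAi, 27.7 and 26.6 in mip130 RNAi and 3.41 in E2F2 RNAi. Its changes of 3.49 and 3.6 (adjusted p = 0.0414 and 0.0385, limma) were lost without the second GFP library or any single mip40, mip120 or mip130 library (up to 0.18 and 0.153). Gmap went the other way, from 19.6 and 21.0 FPKM to 13.1 and 12.3 in mip120 RNAi and 14.1 and 13.3 in mip130 RNAi, and its summed level fell by 0.64 and 0.53 (adjusted p = 0.00203 and 0.00463).

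The member 23 bp from PTP-ER (2R:17511970, plus strand) was listed at 0 in both controls, at 10.5 and 14.8 FPKM in mip120 RNAi and at 11.4 and 3.76 in mip130 RNAi (adjusted p = 0.0129 and 0.026, limma). It was at 1.51 and 3.84 FPKM in mip40 RNAi and 2.92 in E2F2 RNAi. All mip120 and mip130 libraries lay above both controls, while the second mip130 library lay below the second mip40 library. The member reached 1 FPKM in RNAi libraries alone and so entered the test through them, where it had to be higher. An exact 0 in the controls can also be a failed estimate. The mip120 call was lost without any GFP or mip120 library (up to 0.0898) and the mip130 call without any GFP or mip120 library or the first mip130 library (up to 0.12). PTP-ER stayed between 10.5 and 12 FPKM in all 9 libraries.

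The member 336 bp from Drak, a kinase gene related to death-associated protein kinases, starts at X:11386867 on the minus strand. It was listed at 0 in both controls, the second mip40 library and E2F2 RNAi, and at 0.146 FPKM in the first mip40 library. The member reached 1 FPKM in the mip120 and mip130 libraries alone and so entered the test through them, where it had to be higher. It stood at 4.01 and 3.01 FPKM in mip120 RNAi and 1.68 and 1.25 in mip130 RNAi (adjusted p = 0.00646 and 0.0279, limma), and at 2.06 (SE 0.24) above mip40 RNAi in mip120 RNAi (adjusted p = 0.0158). The call against GFP in mip120 RNAi was kept in every leave-out, while the one in mip130 RNAi was lost without any GFP, mip120 or mip130 library (up to 0.122) and the difference from mip40 RNAi without any mip40 or mip120 library (up to 0.0926).

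Near CG11284, 315 bp away, the minus-strand member at X:8575269 was at 2.13 and 0.857 FPKM in the controls, 5.05 and 3.19 in mip40 RNAi, 7.08 and 7.25 in mip120 RNAi, 14.0 and 17.1 in mip130 RNAi and 6.6 in E2F2 RNAi. The mip130 change was 2.77 (SE 0.31, adjusted p = 0.0074, limma), lost without the second mip130 library (0.061), and the mip120 change was 1.76 (adjusted p = 0.0222), lost without the second GFP or either mip120 library (up to 0.117). All libraries of mip120 and mip130 RNAi lay above both controls. Mip130 RNAi also exceeded mip40 RNAi by 1.71 (adjusted p = 0.0471), lost without any mip40, mip120 or mip130 library (up to 0.194).

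The member beside Nipsnap, a gene of a mitochondrial protein, starts 118 bp away at X:15967717 on the plus strand. It was at 0 and 0.0765 FPKM in the controls, 0.35 and 0.475 in mip40 RNAi, 0.522 and 0.58 in mip120 RNAi, 2.17 and 2.87 in mip130 RNAi and 0 in E2F2 RNAi. It reached 1 FPKM in the mip130 libraries alone and so entered the test through them, where it had to be higher. The change was 1.76 (SE 0.23) against GFP (adjusted p = 0.0122, limma), lost without the second GFP library (0.0671), and it could not be tested without either mip130 library. Against mip40 RNAi the difference was 1.31 (adjusted p = 0.0457), lost without any GFP, mip40 or mip120 library (up to 0.14).

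The member 9 bp from upd3 was the single one of 65 members called in any comparison with GFP that had calls in both directions. On the minus strand at X:18171257, it was at 5.30 and 5.59 FPKM in the controls, 5.63 and 6.88 in mip40 RNAi, 15.6 and 12.9 in mip120 RNAi, 11.8 and 7.65 in mip130 RNAi and listed at 0 in E2F2 RNAi. The rise in mip120 RNAi was 1.24 (SE 0.20, adjusted p = 0.0259, limma), and the E2F2 library lay below the controls (adjusted p = 0.0168). The fall rests on an exact 0 in 1 library, which can be a failed estimate. Both calls were lost without any GFP or mip120 library (up to 0.117 and 0.0888). The gene upd3 stood at 9.46 and 7.15 FPKM in the controls, 12.8 and 10.1 in mip120 RNAi and 7.02 in E2F2 RNAi, and its summed level did not pass the test in mip120 RNAi (adjusted p = 0.0683).

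The member 5 bp from CG5024 (3R:21636813, minus strand) rose along with its gene. It was at 0.148 and 0.19 FPKM in the controls, 2.19 and 1.91 in mip120 RNAi and 1.59 and 1.41 in mip130 RNAi, with no overlap between these groups. In mip40 RNAi it was at 0.956 and 0.941 FPKM and in E2F2 RNAi at 0.532. The member thus entered the test through the mip120 and mip130 libraries alone, where it had to be higher, and its leave-outs are not given. CG5024 rose by 1.64 and 1.47 on the log2(FPKM + 1) scale of the summed gene (adjusted p = 0.00315 and 0.00548, limma).

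Most genes beside a risen member were not called in the same comparison, and neither were most annotated genes. Of the 21 genes head to head with members risen in mip120 RNAi, 2 rose, 4 fell and 15 were not called, where 17.3% and 18.4% of all 7835 annotated genes tested by their summed level rose and fell. Of the 17 in mip130 RNAi, 3 rose, 3 fell and 11 were not called, against 19.1% and 16.6% of all genes. These shares are near the background and are no result about these genes. Over the 360 tested members with a tested gene, the changes of member and nearest gene correlated at r = 0.0975 (Spearman's rho 0.115) in mip120 RNAi and r = 0.0815 (0.0903) in mip130 RNAi. These are descriptions across members, which share libraries and, in clusters, their nearest gene.

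Not all risen members were head to head. The member at X:6581500 lies on the minus strand, 1303 bp downstream of the start of CG3184 on the same strand, with a first exon of 105 bp (X:6581396-6581500). It was at 64.0 and 59.0 FPKM in the controls, 122 and 115 in mip40 RNAi, 113 and 109 in mip120 RNAi, 119 and 120 in mip130 RNAi and 96.6 in E2F2 RNAi. CG3184 itself was at 2.68 and 1.99 FPKM in the controls and 2.62 in E2F2 RNAi. The gene was higher in the mip groups, at 3.17 and 4.18 FPKM in mip40, 4.77 and 4.55 in mip120 and 4.71 and 4.13 in mip130 RNAi. Every RNAi library of the member exceeded both controls, and its spread within groups was small. It rose by 0.94, 0.84 and 0.95 (SE 0.07, adjusted p = 0.00538, 0.00276 and 0.00242, limma), kept in every leave-out, and by 0.64 in E2F2 RNAi (adjusted p = 0.0286), lost without any GFP, mip120 or mip130 library (up to 0.101).

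The member at X:1378176 lies 730 bp upstream of sta, which encodes a ribosomal protein of the small subunit, on the same strand, with a first exon of 505 bp (X:1377672-1378176). It was at 0 and 0.186 FPKM in the controls, 4.92 and 4.84 in mip40 RNAi, 3.66 and 3.91 in mip120 RNAi, 5.62 and 4.95 in mip130 RNAi and 3.23 in E2F2 RNAi. The controls were near 0 and every RNAi library was well above them, so the member entered the test through RNAi libraries, where it had to be higher. The rises of 2.43, 2.13 and 2.53 (SE 0.18, adjusted p = 0.00539, 0.00294 and 0.0022, limma) were kept in every leave-out. That of 1.96 in E2F2 RNAi (adjusted p = 0.0207) was lost without any GFP, mip120 or mip130 library (up to 0.0711). The gene sta was at 702 and 554 FPKM in the controls and between 586 and 945 in the RNAi libraries.

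Upstream of CG2680 by 460 bp on the same strand, the member at X:2601910 was at 0.731 and 0 FPKM in the controls, 9.24 and 4.51 in mip40 RNAi, 5.08 and 3.27 in mip120 RNAi, 12.8 and 8.34 in mip130 RNAi and listed at 0 in E2F2 RNAi. CG2680 itself moved with the member, at 0.305 and 0.278 FPKM in the controls and 0.21 in E2F2 RNAi. It was at 0.585 and 0.829 FPKM in mip40 RNAi, 1.05 and 0.994 in mip120 RNAi and 1.84 and 2.15 in mip130 RNAi. All mip libraries of the member exceeded the controls. The member reached 1 FPKM in them alone and so entered the test through them, where it had to be higher. The changes of 3.11 (SE 0.44) in mip130 RNAi (adjusted p = 0.0149, limma) and 1.95 in mip120 RNAi (adjusted p = 0.0441) were lost, the first without the second GFP or either mip130 library (up to 0.0821) and the other without any GFP, mip120 or mip130 library (up to 0.175).

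The members at X:6581500, X:1378176, X:3693095 and X:9056161 were those that rose in mip40, mip120 and mip130 RNAi alike, against 0.708% of all transcripts, and none fell in all 3, against 0.0952%. All 4 lie on the X chromosome, which held 71 of the 467 tested members. In mip120 and in mip130 RNAi, 13 of these 71 rose (18.3%), against 23 and 19 of the 396 members elsewhere (5.81% and 4.8%). Over transcripts of all classes, 6.86% and 7.12% of those on the X rose, against 5.98% and 6.38% elsewhere. Members under 1 FPKM in both controls entered the test through RNAi libraries, where they had to be higher, so the filter bears on these counts. The split by X was not planned, was not repeated with libraries left out, and its difference was not tested. Rises shared by mip120 and mip130 RNAi counted 24 of the 467 members (5.14%), against 3.87% of all transcripts, and shared falls counted 7 (1.5%), against 2.44%. The shared rises were 66.7% of the mip120 list and 75.0% of the mip130 list, where the same shares over all transcripts were 63.1% and 59.5%. These comparisons share their control libraries.

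The median control level of the fallen members in mip120 RNAi was 15.0 FPKM, against 0.494 FPKM for those that rose, and in mip130 RNAi 14.6 against 1.4 FPKM. A member near 0.5 FPKM can hardly fall on the log2(FPKM + 1) scale, and one low in the controls enters the test only if it is higher elsewhere, so the scale and the filter bear on this gap. The largest fall in mip120 RNAi was at 3L:11360779 on the plus strand, 2794 bp upstream of CG6163 on the opposite strand. It was at 13.6 and 15.5 FPKM in the controls, 10.0 and 4.58 in mip40 RNAi, 1.11 and 1.70 in mip120 RNAi, 4.95 and 3.55 in mip130 RNAi and 13.8 in E2F2 RNAi. Mip120 and mip130 libraries lay below all controls, by -2.70 and -1.58 (SE 0.35, adjusted p = 0.0102 and 0.0426, limma), calls lost without any GFP or mip120 library (up to 0.0635) and without any GFP, mip120 or mip130 library (up to 0.185).

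At 2L:21928721, on the plus strand, a member 12360 bp downstream of CG11634 was at 32.1 and 17.4 FPKM in the controls, 23.6 and 20.3 in mip40 RNAi, 5.60 and 2.85 in mip120 RNAi, 11.2 and 14.7 in mip130 RNAi and 47.4 in E2F2 RNAi. The mip120 libraries were the lowest, by -2.29 (SE 0.36, adjusted p = 0.0183, limma), lost without the first GFP or the second mip120 library (up to 0.093). They were below mip40 RNAi by -2.18 (adjusted p = 0.033), lost without any mip40, mip120 or mip130 library (up to 0.159). The summed level of its assembly locus of 7 members did not pass the test, with changes of -0.16 against GFP (adjusted p = 0.0985) and -0.07 against mip40 RNAi (adjusted p = 0.476). Another member of the same cluster, at 2L:21929872, rose in mip130 RNAi instead, from 11.6 and 9.98 FPKM to 20.9 and 20.4, and the cluster of 11 summed to 116 to 132 FPKM in the 8 libraries other than E2F2 RNAi, where it was at 155 FPKM.

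Other members fell on 2R. The member at 2R:6435576, 4782 bp upstream of lola, a BTB zinc finger gene, was at 10.4 and 12.7 FPKM in the controls and 5.34 and 3.26 in mip120 RNAi, with 6.72 to 13.1 in the other libraries (change -1.27, SE 0.23, adjusted p = 0.0237, limma). That call was lost without either GFP or the second mip120 library (up to 0.115). Members at 2R:6443487 and 2R:6444847, 1906 and 546 bp upstream of psq, another BTB factor gene, fell by -0.61 and -0.58 in mip120 RNAi (adjusted p = 0.0328 and 0.0185) and by -0.61 and -0.60 in mip130 RNAi (adjusted p = 0.034 and 0.0184). The member 3687 bp upstream of luna, a KLF-family gene, at 2R:6998008, fell from 14.7 and 16.1 FPKM to 7.94 and 7.85 in mip120 RNAi (change -0.88, adjusted p = 0.0222), lost without any GFP or mip120 library (up to 0.116). The psq members and that at 2L:21929872 were named after their values were seen.

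The heterochromatic member at 3LHet:2395238, 2553 bp upstream of RpL15 on the opposite strand, was at 20.8 and 26 FPKM in the controls, 26.4 and 21.5 in mip40 RNAi, 9.64 and 11 in mip120 RNAi, 11.6 and 8.85 in mip130 RNAi and 17.5 in E2F2 RNAi. It fell by -1.10 and -1.12 (SE 0.19, adjusted p = 0.0207 and 0.0215, limma), with all 4 libraries below the rest. The calls were lost without any GFP or mip120 library (up to 0.098) and without the second GFP or either mip130 library (up to 0.11). RpL15 itself was higher in those libraries, at 1780 and 2180 FPKM in mip120 RNAi and 2380 and 2260 in mip130 RNAi against 1580 and 1330 in the controls.

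In mip130 RNAi 1 fallen member was listed at 0. On the plus strand at X:3250354, 16369 bp upstream of dm, the fly Myc gene, and with a first exon of 93 bp, it was at 103 and 89.5 FPKM in the controls, 112 and 213 in mip40 RNAi, 103 and 38.9 in mip120 RNAi and 258 in E2F2 RNAi. It was listed at 0 in both mip130 libraries (adjusted p = 0.00242, limma, kept in every leave-out). An exact 0 at such a level can be a failed estimate, so no fold is given. A head-to-head member 25 bp from RhoGAP15B, at X:16837727, and another 476 bp from Lnk, an adaptor of insulin signalling, at 3R:21713789, fell by -1.38 and -1.54 (adjusted p = 0.0489 and 0.0248). They were lost without any GFP, mip40 or mip130 library (up to 0.205) and without the first GFP or either mip130 library (up to 0.101).

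At X:12645513, 5163 bp downstream of CG4004, a member was at 45.5 and 59.9 FPKM in the controls, 36.9 and 34.1 in mip40 RNAi, 32.9 and 28.8 in mip120 RNAi, 22.0 and 17.3 in mip130 RNAi and 36.1 in E2F2 RNAi. All RNAi libraries lay below both controls and those of mip130 RNAi were the lowest. It fell by -0.74 in mip120 RNAi (adjusted p = 0.0485, limma), lost without any GFP, mip40, mip120 or mip130 library (up to 0.216), and by -1.37 in mip130 RNAi (adjusted p = 0.0111), lost without the second GFP or second mip130 library (up to 0.0683).

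In E2F2 RNAi the other fallen member was at 3L:23771274, with a first exon of 90 bp. It was at 60.0 and 124 FPKM in the controls and between 49.2 and 221 FPKM in the 6 mip libraries, and listed at 0 in E2F2 RNAi (adjusted p = 0.0164, limma), a call lost without the second GFP or either mip120 library (up to 0.0705). An exact 0 at such a level can be a failed estimate, so no fold is given. The 4 risen members of E2F2 RNAi were those near CG3184, sta, Zpr1 and CG5290. With 1 library this group has no replicate check and borrows its spread from the others, and its total of 6 became 1 and 0 without the first and the second GFP library, 0 without either mip120 library and 2 without either mip130 library.

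A pair of members sharing the start 3R:396012 on the minus strand changed in opposite directions. The form with a first exon of 81 bp was at 2.81 and 3.00 FPKM in the controls, 1.42 and 1.73 in mip40 RNAi, 0.00898 and 0.0333 in mip120 RNAi, 0.000902 and 0.0143 in mip130 RNAi and 3.78 in E2F2 RNAi. The form with a first exon of 68 bp was at 0.0284 and 0.000641 FPKM in the controls, 1.83 and 0.757 in mip40 RNAi, 2.68 and 2.67 in mip120 RNAi, 2.58 and 3.55 in mip130 RNAi and 0.0126 in E2F2 RNAi. The controls and E2F2 RNAi thus carried the longer first exon, mip120 and mip130 RNAi the shorter, and mip40 RNAi both.

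In mip120 and mip130 RNAi the longer form fell by -1.93 and -1.95 (SE 0.20, adjusted p = 0.00539 and 0.00639, limma). The shorter form rose there by 1.86 and 1.99 (SE 0.29, adjusted p = 0.0181 and 0.0171, limma). The shorter form reached 1 FPKM in mip libraries alone, where it had to be higher, and its leave-outs are not given. The fall was kept in every leave-out in mip120 RNAi and was lost without the second GFP library in mip130 RNAi (0.0513). The longer form was also below mip40 RNAi, by -1.33 in mip120 RNAi (adjusted p = 0.0266) and -1.35 in mip130 RNAi (adjusted p = 0.0337), calls lost without any GFP, mip40, mip120 or mip130 library (up to 0.144 and 0.15). Summed over both forms, the level was 2.84 and 3.00 FPKM in the controls, 3.25 and 2.49 in mip40 RNAi, 2.69 and 2.70 in mip120 RNAi, 2.58 and 3.57 in mip130 RNAi and 3.79 in E2F2 RNAi, so that both controls lay within the range of the RNAi libraries. The sum changed by -0.08 in mip120 RNAi (adjusted p = 0.703) and 0.05 in mip130 RNAi (adjusted p = 0.84). The forms share most of their sequence in the first exon, so the split between them rests on the authors' estimation of isoforms. The nearest known gene, CG32945, starts 8354 bp away and was at or near 0.

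**Figure D5:**
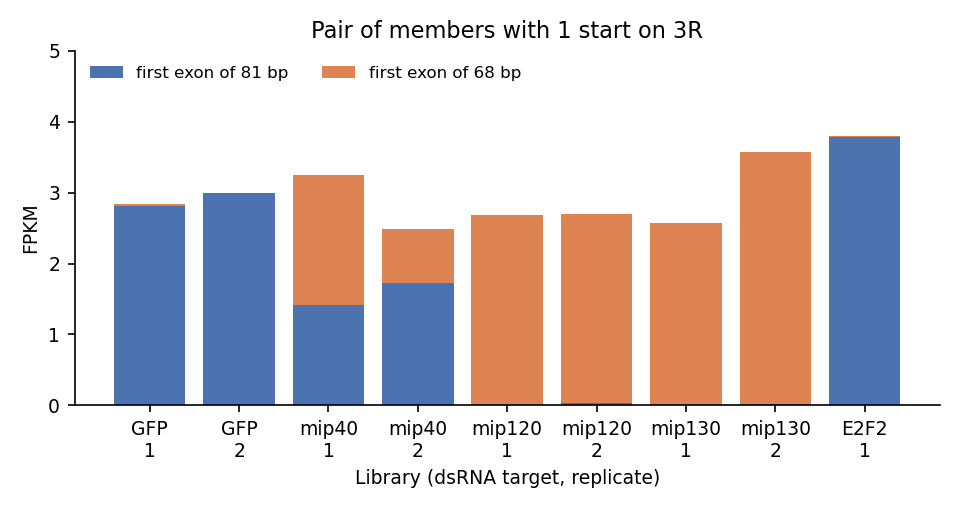
Levels in FPKM of the 2 members that share a start on 3R, stacked by library. The form with a first exon of 81 bp makes up nearly all of the controls and of E2F2 RNAi, the form with 68 bp nearly all of mip120 and mip130 RNAi, and the sum runs from 2.49 to 3.79 FPKM.

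Direct comparisons between RNAi groups called few members. Against mip40 RNAi, 6 members were higher and 8 lower in mip120 RNAi, with 2.27% and 2.57% over all transcripts, and 5 were higher and 4 lower in mip130 RNAi, with 1.58% and 2.06%. With libraries scaled to equal sums of known transcripts the mip120 split was 8 higher and 7 lower. Between mip130 and mip120 RNAi none was higher and 1 was lower, with 0.208% and 0.22% over all transcripts and 42 members at an unadjusted p under 0.05. The lower one was the member upstream of dm listed at 0 in mip130 RNAi (adjusted p = 0.0181, limma), a call lost without any GFP or mip130 library (up to 0.182). It was also below mip40 RNAi (adjusted p = 0.00502), lost without the second mip130 library (0.0631).

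At the largest cluster of members on 2L, the member at 2L:22279911 was lower than in mip40 RNAi by -1.44 (SE 0.16, adjusted p = 0.015, limma) in mip120 RNAi and by -1.20 (adjusted p = 0.0287) in mip130 RNAi. These were lost without either mip120 library (up to 0.103) and without the first mip40 or any mip120 or mip130 library (up to 0.154). Its neighbour at 2L:22277261 was lower in mip120 than in mip40 RNAi by -1.45 (adjusted p = 0.0339), lost without any mip40, mip120 or mip130 library (up to 0.184). The member at X:2033451, 2071 bp upstream of CG3835, was higher in mip120 RNAi, at 11.5 and 13.4 FPKM against 4.09 and 2.66 in mip40 RNAi and 2.34 and 3.08 in the controls. The difference from mip40 RNAi was 1.63 (adjusted p = 0.0352), lost without any GFP, mip40 or mip120 library (up to 0.19), and that from GFP 1.86 (adjusted p = 0.0158), lost without any GFP or mip120 library (up to 0.101). CG3835 stood at 16.7 and 18.6 FPKM in mip120 RNAi against 38.3 and 36.3 in the controls.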

How the data were processed

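The authors deposited 1 table of FPKM values per assembled transcript, with 9 library columns used here and 4 columns of group means that were not used. Per the submitters' processing notes, Bowtie 1.1.1, TopHat2 2.0.12, Cufflinks and Cuffnorm were named; their settings, the genome build and the annotation release were not given in the sources that were used. Positions are 1-based as listed in the table. FPKM holds no read counts, so depth is unknown and no interval for counting error is given. The 9 chromatin samples and 1 naked DNA sample of the series were not analysed here, and no sequences are printed.

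Values were analysed as log2(FPKM + 1) for transcripts with at least 1 FPKM in at least 2 libraries, in 1 model of 5 groups with limma 3.58.1 (R 4.3.3), an intensity trend and Benjamini-Hochberg adjustment over 16806 transcripts at 0.05, and the code was tested on simulated data. Annotated genes were tested by their summed FPKM in a separate fit. Distances run between starts, to transcripts of the class known. Summaries and plots used Python 3.11.15, pandas 2.3.3 and matplotlib 3.10.9. Named members are the 10 highest, the 6 largest calls per direction and comparison whose libraries did not overlap, those called in all 3 mip groups and up to 3 per direction per difference between RNAi groups, with exceptions given where they occur; the head-to-head members and their genes were also named after their values were seen. The members and lists were chosen with earlier results of these data known. Alternatives changed the pseudocount, the filter, the scaling, the groups in the fit, the trend, the unit summed and the libraries used.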

Additional observations from a re-analysis of the deposited data

Results flagged for a closer look

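A member's effect was looked at again where the direct limma test of 2 RNAi groups, which share the GFP control, passed at an adjusted p under 0.05. Differences are on the log2(FPKM + 1) scale, and the libraries on which each depends are given in the text above or beside the value.

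These are the named members among the 14 called for mip120 against mip40 RNAi, the 9 for mip130 against mip40 RNAi and the 1 for mip130 against mip120 RNAi.

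In mip120 against mip40 RNAi, the member near CG5290 on 3L was higher by 2.91 (adjusted p = 0.00435). The member near Drak on X was higher by 2.06 (0.0158) and that near CG3835 on X by 1.63 (0.0352). The Drak member entered the test through its mip120 and mip130 libraries alone. The member at 2L:21928721 differed by -2.18 (0.033), although its summed locus did not (-0.07, adjusted p = 0.476). The member near luna on 2R differed by -0.98 (0.0288), that at 3LHet:2395238 by -1.13 (0.0319) and the longer form of the 3R pair with a shared start by -1.33 (0.0266). The luna difference was lost without any GFP, mip120 or mip130 library or the second mip40 library. That at 3LHet:2395238 was lost without any GFP, mip40 or mip120 library. At the 2L cluster near Tif-IA, the members at 2L:22277261 and 2L:22279911 differed by -1.45 (0.0339) and -1.44 (0.015).

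In mip130 against mip40 RNAi, the member near CG5290 was higher by 2.34 (0.0107), that near CG11284 by 1.71 (0.0471) and that near Nipsnap by 1.31 (0.0457). The Nipsnap member entered the test through its mip130 libraries alone and could not be tested without either of them. The member at 2L:22279911 differed by -1.20 (0.0287), that at 3LHet:2395238 by -1.16 (0.0394) and the longer form of the 3R pair by -1.35 (0.0337). The difference at 3LHet:2395238 was lost without any mip40, mip120 or mip130 library. The summed level of the 3R pair differed from mip40 RNAi by -0.06 in mip120 RNAi (adjusted p = 0.816) and by 0.07 in mip130 RNAi (adjusted p = 0.76). The member upstream of dm, listed at 0 in both mip130 libraries, was lower than in mip40 RNAi (adjusted p = 0.00502) and than in mip120 RNAi (adjusted p = 0.0181), and has no fold.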

How the results depend on the processing

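With limma fitted to the 2 compared groups only, the calls against GFP numbered 25 in mip120 RNAi, 25 in mip130 RNAi, 0 in mip40 RNAi and 0 in E2F2 RNAi, with 40 members in mip40 and 44 in E2F2 RNAi at an unadjusted p under 0.05. The same fit gave 0 for mip120 against mip40 RNAi (73 unadjusted), 1 for mip130 against mip40 RNAi and 0 for mip130 against mip120 RNAi (44 unadjusted). Summing each assembly locus and testing 425 loci of members gave more calls, 24 in mip40, 111 in mip120, 112 in mip130 and 25 in E2F2 RNAi against GFP, and 60, 56 and 16 in the 3 differences between RNAi groups, in the order mip120 against mip40, mip130 against mip40 and mip130 against mip120. Of these loci 26.1% and 26.4% were called in mip120 and mip130 RNAi against GFP, where 35.7% of annotated genes summed in the same fit were called in each, so the higher counts do not set the members apart. A pseudocount of 0.1 gave 12 calls in E2F2 RNAi and 5 for mip130 against mip40 RNAi. No filter gave 13 in E2F2 RNAi and 6 for mip130 against mip120 RNAi, and a mean of at least 1 FPKM gave 10 in E2F2 RNAi. Without the intensity trend 7 members were called in mip40 RNAi. The cause of these moves was not tested.

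With the replicate number as a replicate block, calls numbered 3 in mip40, 22 in mip120, 23 in mip130 and 0 in E2F2 RNAi (46 unadjusted), and 3, 2 and 0 in the 3 differences (36 unadjusted in the last). Deviations of same-numbered libraries correlated at -0.081 to 0.0594 between groups. Whether same-numbered libraries were handled together is not stated in the labels.

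Leaving out 1 library at a time gave 2 to 4 calls in mip40, 7 to 48 in mip120, 7 to 47 in mip130 and 0 to 7 in E2F2 RNAi, and 0 to 16, 0 to 10 and 0 to 2 in the 3 differences. Of 67 named calls, 64 held with equal sums of known transcripts, 66 with median-ratio scaling, 64 with quantile normalization, 63 with a pseudocount of 0.5, 59 with 0.1, 53 without the intensity trend, 47 without a filter, 34 with the replicate block and 29 with 2 groups only. With 1 library left out, 352 held and 241 were lost over all calls and libraries that could be tested. None of these reversed in direction. By the summed locus, compared after the data were seen, 61 of the 67 were called in the same direction, 4 were not called (both of the member at 2L:21928721 and 2 of the longer form at 3R:396012), and 2 of the longer form at 3R:396012 had the opposite sign without a call (0.05 and 0.07). Counts of head-to-head members risen under each of these settings were added after the data were seen and stayed within 1.5 times of 21 and 17 except in the settings that left out a library, used 2 groups or used the block. Depth is unknown from FPKM, so low members cannot be given a counting error.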
